A study of Mus musculus with 6 samples.

Results

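The genes that govern the G1 phase of the cell cycle were examined in 6 RNA-seq libraries of murine CD4 cells. The 10 genes were taken by name from the deposited count table through their Ensembl identifiers. They are the D-type cyclins *Ccnd1*, *Ccnd2* and *Ccnd3*, the E-type cyclins *Ccne1* and *Ccne2*, the kinases *Cdk4* and *Cdk6*, and the CDK inhibitors *Cdkn1b*, *Cdkn2c* and *Cdkn2d*. The table lists 56748 genes, of which 14936 had enough counts to be tested, and all 10 genes were among these. Naïve CD4 cells came from wild-type C57BL/6J mice aged 6 to 10 weeks. They were cultured for 72 hr under Treg polarizing conditions, with antibodies to CD3, CD28, IFNγ and IL-4 and with IL-2 and TGF-β. An antisense oligonucleotide (ASO) was present at 10 μM from the start. An ASO is a short synthetic strand made to bind a chosen RNA. There were 3 libraries from cells given a scrambled ASO and 3 from cells given an ASO against *Pgam*, the gene name for phosphoglycerate mutase, an enzyme of glycolysis. RNA was taken from unsorted cells, so each value is an average over every cell of a culture, and fewer cells of a type and less RNA per cell cannot be told apart. The study calls the replicates biological, without saying whether they came from separate animals, so p-values measure the spread between these samples. The comparison asks which G1 transcripts differ between the labels. Library totals ran from 15860476 to 18032805 counts.

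G1 is the interval in which a cell either commits to copying its DNA or stays at rest. D-type cyclins are made in response to growth signals and activate CDK4 and CDK6, which phosphorylate the retinoblastoma protein RB and so release E2F transcription factors. E-type cyclins, themselves E2F targets, then activate CDK2 and carry the cell into S phase. INK4 inhibitors, such as the products of *Cdkn2c* and *Cdkn2d*, bind CDK4 and CDK6 alone, whereas the product of *Cdkn1b*, p27Kip1, restrains cyclin E with CDK2 and is abundant in resting T cells. Naïve T cells are quiescent, and activation through CD3 and CD28 brings them into this sequence.

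The targeted transcripts were read first, as a check of the labels. *Pgam1* stood at 600, 478 and 707 CPM (counts scaled to a common library size by TMM) in replicates 1, 2 and 3 with the scrambled label, and at 658, 661 and 707 CPM with the *Pgam* label. Its mRNA was thus no lower under the *Pgam* label, the difference being 0.18 on the log2 scale (SE, the standard error, 0.13, edgeR adjusted p = 0.331). Of the 31-base stretches in *Pgam1* transcripts, 37.12% also occur in the pseudogene *Pgam1-ps2*, which lay between 6.05 and 8.44 CPM. *Pgam2* was scarce, at 5.23, 6.75 and 2.85 CPM against 2.98, 2.69 and 2.6 CPM (log2 fold change -0.84, edgeR adjusted p = 0.0854). *Pgam2* passed with no filter on low counts (edgeR adjusted p = 0.0292) and without scrambled replicate 3 (log2 fold change -1.11, edgeR adjusted p = 0.0144), and over its 14 alternatives the adjusted p ran up to 0.286. As neither transcript passed with the low-count filter and all 6 libraries, and protein was not analysed here, the groups are called by their labels, and every direction given is between labels. *Foxp3*, which encodes the transcription factor that marks Tregs, did differ. It fell from 282, 371 and 222 CPM to 89.7, 109 and 131 CPM (log2 fold change -1.41, edgeR adjusted p = 0.00567).

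A library of each label lay farthest from the other label. Replicate 2 labelled scrambled ASO held the lowest value of all 6 libraries for 8 of the 10 G1 genes and the highest for *Cdkn1b*. By chi-square per degree of freedom over gene counts, it was the scrambled library farthest from each library labelled *Pgam* ASO, at 47.8 to 85.9 against 16.6 to 49.2 for the other 2. Likewise, replicate 1 labelled *Pgam* ASO was the farthest of its label from each scrambled library, at 35.8 to 85.9 against 16.6 to 65.1 for the other 2. Without that replicate the log2 fold changes of *Cdk6*, *Cdk4*, *Ccnd3* and *Cdkn1b*, the G1 genes called below, were 0.81, 0.33, 0.44 and -0.83 (edgeR adjusted p = 0.00765, 0.113, 0.122 and 0.053). Values without scrambled replicate 2 are given beside each of these genes. The same measure was used to look for duplicate libraries, and no pair agreed within sampling noise.

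*Cdk6*, *Cdk4* and *Ccnd3* had higher mRNA levels in libraries labelled *Pgam* ASO, and *Cdkn1b* had lower levels. The rise was 1.73-fold for *Cdk6*, 1.36-fold for *Ccnd3* and 1.26-fold for *Cdk4*, and *Cdkn1b* was 2.07-fold lower. By the quasi-likelihood test of edgeR at a Benjamini-Hochberg adjusted p of 0.05, 3 of 10 genes were higher, against 8.03% of all tested genes. In the same test 1 of 10 was lower, against 9.15% of all tested genes. Complete separation of the labels was seen for 4 of 10 genes, close to the 39.5% of all tested genes. The median log2 fold change was 0.24 for the 10 genes and -0.0061 for all tested genes. Scaled by total counts alone, 2 genes passed, *Cdk4* and *Cdk6*. The calls rest on few libraries. With replicate 1 or 2 of either label left out, *Cdk6* was the 1 gene called, without *Pgam* ASO replicate 3 there were 2 calls, *Cdk6* and *Cdkn1b*, and without scrambled replicate 3 there were 5, all higher.

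**Figure D1:**
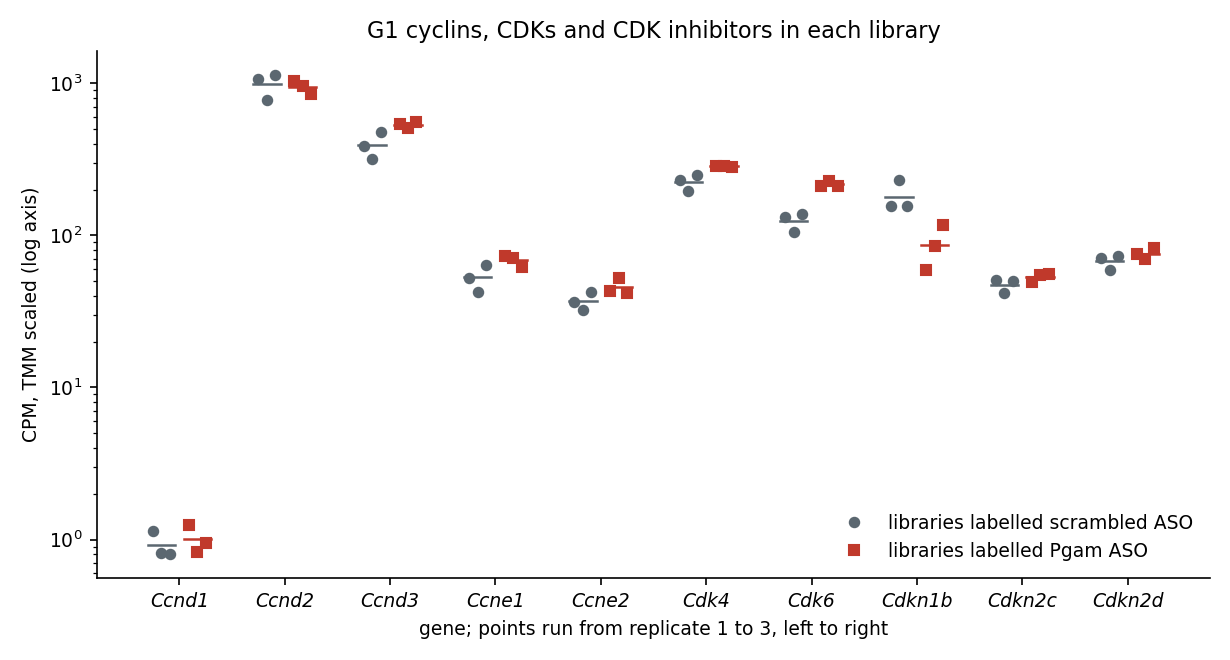
Expression of each G1 gene in each library, in TMM-scaled CPM on a log axis, with gray circles for libraries labelled scrambled ASO, red squares for libraries labelled *Pgam* ASO, and bars for the means of 3. The red squares of *Cdk6*, *Cdk4* and *Ccnd3* all lie above the gray circles, those of *Cdkn1b* all lie below, and *Ccnd1* is near 1 CPM under both labels.

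Transcript levels were ordered after division by length, as CPM per kilobase of the mean protein-coding transcript. With the scrambled label, *Ccnd2* (445 ± 85.1, SD, n = 3) and *Ccnd3* (378 ± 79.2, SD, n = 3) led, and their ranges overlapped. *Cdk4* followed at 185 ± 22.1 CPM per kilobase (SD, n = 3), apart from its neighbours in the order. *Cdkn1b* (62.1 ± 15, SD, n = 3) and *Cdkn2d* (59.8 ± 6.65, SD, n = 3) could not be ordered beyond their spread, nor could *Ccne1* (40.8 ± 8.33, SD, n = 3) and *Cdk6* (40.4 ± 5.8, SD, n = 3). *Cdkn2c* at 26.5 ± 2.91, *Ccne2* at 12.5 ± 1.74 and *Ccnd1* at 0.244 ± 0.049 CPM per kilobase (SD, n = 3) came last, each in a range of its own. The D-type kinase partners were thus present at unlike levels, with *Cdk4* mRNA above *Cdk6* mRNA in all 6 libraries.

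Under the *Pgam* label 4 of the 10 genes held another place with this length. *Cdk6* moved from place 7 to place 4, at 70 ± 3.36 CPM per kilobase (SD, n = 3), where its range overlapped that of *Cdkn2d* at 67.5 ± 5.39 (SD, n = 3). *Cdkn1b* moved from place 4 to place 7, at 30 ± 10 CPM per kilobase (SD, n = 3), and its range overlapped that of *Cdkn2c* at 29.8 ± 1.8 (SD, n = 3). *Ccnd3* (513 ± 26.1, SD, n = 3) passed *Ccnd2* (423 ± 40.3, SD, n = 3), with ranges that did not overlap. These places depend on the length used. Divided by the longest transcript of each gene, *Cdk6* was at place 9 with the scrambled label and at place 8 with the *Pgam* label, and *Cdkn1b* at places 5 and 7. *Cdkn1b* was then above *Cdk6* in each scrambled library, with means of 39.6 and 10.9 CPM per kilobase. With the *Pgam* label they could not be ordered, at 13, 18.6 and 25.8 for *Cdkn1b* and 18.4, 19.9 and 18.2 for *Cdk6*. By means *Ccnd2* led under both labels, at 157 and 149 CPM per kilobase, although its range overlapped that of *Ccnd3* under each. *Ccnd3* and *Cdk4*, with means of 102 and 110 and of 139 and 138, overlapped under both labels as well.

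**Figure D2:**
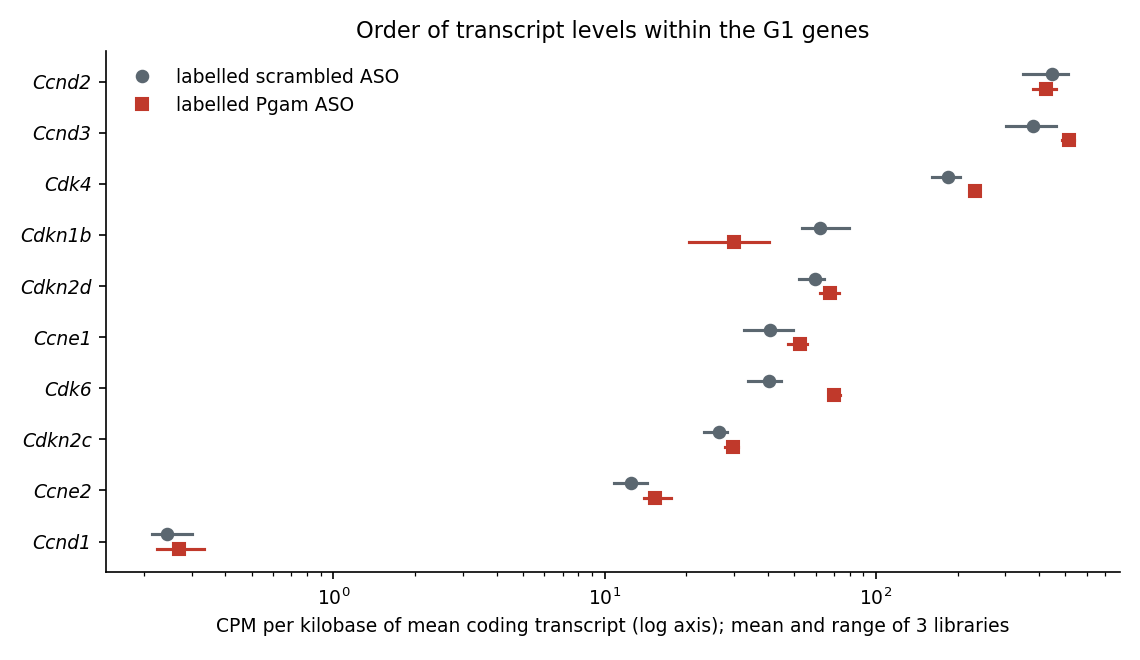
Level of each G1 gene in CPM per kilobase of mean protein-coding transcript, on a log axis, with symbols for the mean and lines for the range of 3 libraries under each label. With this length *Cdk6* at 40.4 and 70 and *Cdkn1b* at 62.1 and 30 CPM per kilobase change places between the labels, whereas with the longest transcripts they overlap under the *Pgam* label.

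*Cdk6* encodes a kinase that pairs with D-type cyclins in blood cells. It lies on chromosome 5 from 3341485 to 3531008, plus strand, of GRCm38 (ENSMUSG00000040274). Its level was 133, 105 and 138 CPM in replicates 1, 2 and 3 with the scrambled label, and 212, 229 and 210 CPM in those with the *Pgam* label. Even the lowest library labelled *Pgam* ASO stood well above the highest scrambled one. The log2 fold change was 0.79 (SE 0.11, 95% interval 0.55 to 1.04, edgeR adjusted p = 0.00265), rank 141 of all tested genes by p. Without replicate 2 labelled scrambled ASO it was 0.68 (edgeR adjusted p = 0.00107). It passed the threshold in each of the 14 alternatives, with an adjusted p from 4.79e-13 to 0.027. An antisense neighbour, *Gm17590*, shares 2.43% of the 31-base stretches of *Cdk6* transcripts and lay between 1.03 and 5.74 CPM, higher under the *Pgam* label (log2 fold change 1.85, edgeR adjusted p = 0.00449).

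*Cdk4* encodes the closely related kinase, on chromosome 10 from 127063534 to 127067920, plus strand (ENSMUSG00000006728). Scrambled replicates 1, 2 and 3 held 230, 197 and 251 CPM, and those labelled *Pgam* ASO held 286, 285 and 283 CPM. The libraries labelled *Pgam* ASO were nearly equal to each other, and all exceeded the scrambled ones. The log2 fold change was 0.33 (SE 0.10, 95% interval 0.12 to 0.54, edgeR adjusted p = 0.0428). Without scrambled replicate 2 it was 0.24 and no longer passed (edgeR adjusted p = 0.0908). When any other single library was left out except replicate 3 with the scrambled label, the adjusted p was again above the threshold, from 0.0613 to 0.144, with log2 fold changes of 0.33 to 0.34, and without that one it was 0.0164. *Tspan31*, on the opposite strand, shares 18.05% of the 31-base stretches of *Cdk4* transcripts and was present at 53.6 to 69.2 CPM, and its log2 fold change was 0.20 (edgeR adjusted p = 0.149). The counting is not stated to have used strand, so part of the reads of this pair cannot be told apart.

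The promoters of the 4 genes called are shown so that genes called higher and lower can be compared by their motifs. Each window runs from 250 bases before to 50 bases after a RefSeq start on GRCm38.p6, 5′ to 3′ on the gene's strand, in lower case, with matches to the motifs searched in capitals, and the sequences are those of RefSeq. Of the 10 genes 7 had an entry in the set of windows used here, with 9 windows in all, and *Ccnd1*, *Ccnd2* and *Ccne2* had none in that set. Of the 2 windows of *Ccnd3*, the one with a match is shown.
Cdk4, chr10:127063285-127063584, plus strand: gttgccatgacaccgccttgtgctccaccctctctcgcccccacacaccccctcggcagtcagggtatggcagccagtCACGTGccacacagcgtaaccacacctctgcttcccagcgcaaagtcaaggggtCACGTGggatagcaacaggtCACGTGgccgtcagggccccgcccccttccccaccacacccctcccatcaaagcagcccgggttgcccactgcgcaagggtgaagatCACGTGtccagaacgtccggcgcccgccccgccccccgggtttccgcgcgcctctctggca
Cdk6, chr5:3343643-3343942, plus strand: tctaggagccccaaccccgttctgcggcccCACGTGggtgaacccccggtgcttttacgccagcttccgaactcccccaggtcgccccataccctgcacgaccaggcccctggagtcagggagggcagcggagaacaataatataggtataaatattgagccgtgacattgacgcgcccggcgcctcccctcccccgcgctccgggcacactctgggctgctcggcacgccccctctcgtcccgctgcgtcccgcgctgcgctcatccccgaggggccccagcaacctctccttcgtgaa
Ccnd3, chr17:47504801-47505100, plus strand: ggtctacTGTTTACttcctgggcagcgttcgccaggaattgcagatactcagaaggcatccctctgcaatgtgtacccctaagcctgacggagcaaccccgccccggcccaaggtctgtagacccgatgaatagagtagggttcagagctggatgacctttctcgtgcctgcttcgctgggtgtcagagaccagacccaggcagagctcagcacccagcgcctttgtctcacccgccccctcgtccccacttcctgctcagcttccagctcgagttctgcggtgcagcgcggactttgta
Cdkn1b, chr6:134920151-134920450, plus strand: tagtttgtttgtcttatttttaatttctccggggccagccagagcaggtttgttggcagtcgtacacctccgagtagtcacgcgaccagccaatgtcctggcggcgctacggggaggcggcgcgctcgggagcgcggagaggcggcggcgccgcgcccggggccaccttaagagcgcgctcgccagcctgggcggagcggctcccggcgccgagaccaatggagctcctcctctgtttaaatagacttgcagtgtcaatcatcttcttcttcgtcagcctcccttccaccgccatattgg
The E-box CACGTG, the sequence that MYC with MAX is known to bind, reads the same on both strands and was counted once per position. It occurred 4 times in the *Cdk4* window, beginning 172, 118, 98 and 11 bases before the start, and once in the *Cdk6* window, 220 bases before it. Of all 32851 windows, 7.15% hold the E-box at least once, and 0.0244% (8 windows) hold it 4 times or more. *Cdkn2c* had an E-box as well, 34 bases after the start in one of its windows. Other motifs were searched on both strands. An E2F motif was taken as TTCCCGC or as one of its relatives (the spelling TTCGCGC and also TTGCCGC and also TTGGCGC). Found in 9.57% of all windows, it had a match in *Cdkn2c* and in no other of the 7 genes, namely TTCCCGC 25 bases before the other start. The forkhead motif GTAAACA, in 3.65% of all windows, matched in *Ccnd3* on the minus strand, 243 bases before the start. TTTGAA and TTCGAA, the cell cycle homology region, occur in 19.2% of all windows and in 0 of the 9. No matches overlapped each other. The windows of *Cdkn1b*, *Ccne1* and *Cdkn2d* held no match, and a match or its absence says only whether the letters are present. *Myc* mRNA itself was 310, 251 and 306 CPM with the scrambled label and 283, 270 and 239 CPM with the *Pgam* label (log2 fold change -0.13, edgeR adjusted p = 0.406).

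Among D-type cyclins, *Ccnd3* was higher under the *Pgam* label, and neither *Ccnd2* nor *Ccnd1* passed the test. *Ccnd3*, on chromosome 17 from 47505051 to 47599691, plus strand (ENSMUSG00000034165), encodes a D-type cyclin of lymphocytes. Its level was 387, 316 and 480 CPM in scrambled replicates 1, 2 and 3, and 539, 505 and 559 CPM in those labelled *Pgam* ASO. The groups did not overlap, although scrambled replicate 3 came close to the lowest of the others. The log2 fold change was 0.44 (SE 0.13, 95% interval 0.14 to 0.74), with an edgeR adjusted p of 0.0488, just inside the threshold. Without scrambled replicate 2 it was 0.30 (edgeR adjusted p = 0.0883). It passed without replicate 3 of that label (edgeR adjusted p = 0.00576) and with no other library left out, where the adjusted p ran up to 0.143. With library size alone the adjusted p was 0.0543, and with at least 10 counts required in every library it was 0.0513. Shared 31-base stretches tie 3.61% of *Ccnd3* to the antisense neighbour *Bysl*, and 3.21% to the pseudogene *Ccnd3-ps*, which stayed at or below 0.321 CPM. *Bysl* was also higher (log2 fold change 0.63, edgeR adjusted p = 0.0347, and 0.106 without scrambled replicate 2). It did not pass without replicate 1 or 2 of either label, where the adjusted p in edgeR reached 0.111.

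*Ccnd2*, the most counted of the 10 genes, is induced in activated T cells (chromosome 6 from 127125162 to 127152193, minus strand, ENSMUSG00000000184). It stood at 1069, 780 and 1139 CPM in scrambled replicates 1, 2 and 3, and at 1032, 953 and 852 CPM in replicates labelled *Pgam* ASO. All 3 of the latter lay within the scrambled range. The log2 fold change was -0.07 (SE 0.14, edgeR adjusted p = 0.732), and its 95% interval, -0.38 to 0.23, leaves room for a change of either sign. *Ccnd1*, the D-type cyclin of many tissues outside blood, lies on chromosome 7 from 144929931 to 144939925, minus strand (ENSMUSG00000070348). It was scarce, from 0.805 to 1.24 CPM, or 13 to 20 counts in a library. A difference was not detectable at this depth, with a 95% interval of -0.70 to 0.98 on the log2 scale. *LTO1*, on the opposite strand, shares 22.31% of the 31-base stretches of *Ccnd1* and was at 12.8 to 17.1 CPM, more than *Ccnd1* itself.

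The make-up of D-type cyclin mRNA was also compared. Per kilobase, *Ccnd2* made up 56.3%, 53.5% and 52.5% of the summed D-type cyclin mRNA in scrambled replicates 1, 2 and 3. Its share was 47.2%, 46.8% and 41.5% in replicates labelled *Pgam* ASO, lower in all 3. The difference of -8.95 percentage points, from 54.1% ± 1.96 (SD, n = 3) to 45.2% ± 3.15 (SD, n = 3), had a two-sided exact permutation p of 0.1, the smallest that 3 libraries against 3 can give. Nearly all of the remainder was *Ccnd3*. The share of *Cdk6* in the sum of *Cdk4* and *Cdk6* mRNA was 18.6%, 17.3% and 17.9% under the scrambled label and 22.7%, 24.1% and 22.7% under the *Pgam* label. Its means, 17.9% ± 0.605 (SD, n = 3) and 23.2% ± 0.827 (SD, n = 3), lay 5.24 percentage points apart (exact permutation p = 0.1). With lengths of the longest transcripts that gap was 3 points, since the longest *Cdk6* transcript, at 11525 bases, is far longer than the mean of 3099 bases. With no division by length it was 7.67 points. *Ccne2* made up 23.6% ± 1.21 (SD, n = 3) and 22.6% ± 1.97 (SD, n = 3) of E-type cyclin mRNA, and the labels overlapped (exact permutation p = 0.6). After Benjamini-Hochberg adjustment over the 3 shares, the exact p-values were 0.15, 0.15 and 0.6, so none could pass a threshold of 0.05 in this design.

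Neither E-type cyclin passed the threshold. *Ccne1* (chromosome 7 from 38097984 to 38107534, minus strand, ENSMUSG00000002068) was at 52.6, 42.6 and 64.3 CPM in scrambled replicates 1, 2 and 3, and at 72.7, 71.1 and 61.7 CPM in replicates labelled *Pgam* ASO. Only replicate 3 of each label broke the separation. The log2 fold change was 0.37 (SE 0.14, 95% interval 0.05 to 0.68, edgeR adjusted p = 0.0939). It passed in 2 alternatives, with no filter on low counts (edgeR adjusted p = 0.00777) and without scrambled replicate 3 (edgeR adjusted p = 0.0169), and over all 14 the adjusted p ran up to 0.251. For *Ccne2* (chromosome 4 from 11191351 to 11204779, plus strand, ENSMUSG00000028212) the values were 36.7, 32.1 and 42.4 CPM against 42.8, 52.4 and 41.7 CPM. Its log2 fold change was 0.30 (SE 0.13, edgeR adjusted p = 0.128), and without scrambled replicate 3 it was 0.41 (edgeR adjusted p = 0.0488), the lowest adjusted p of its 14 alternatives, which ran up to 0.417. *Ints8*, on the other strand, shares 15.61% of the 31-base stretches of *Ccne2* and was at 59.1 to 79.3 CPM.

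**Figure D3:**
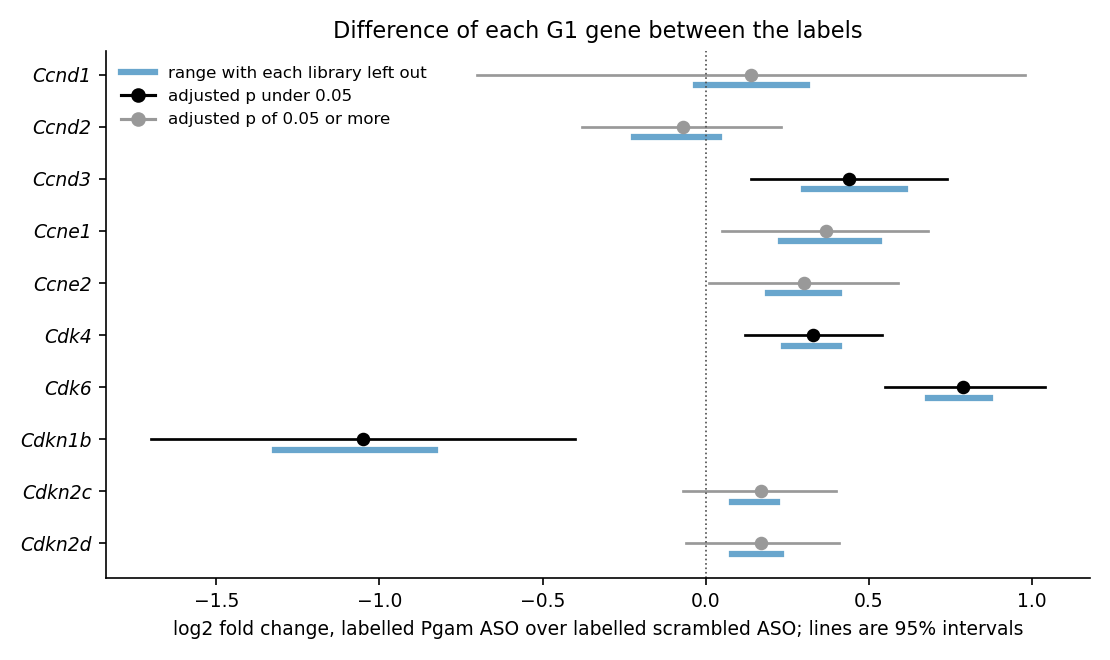
Log2 fold change of each G1 gene, libraries labelled *Pgam* ASO over those labelled scrambled ASO, with 95% intervals from edgeR, black where the adjusted p is under 0.05, and blue bars for the range with each library left out in turn. *Cdk6* at 0.79 and *Cdkn1b* at -1.05 lie farthest from 0, and the blue bars of *Ccnd1* and *Ccnd2* cross 0.

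Of the CDK inhibitors, *Cdkn1b* was lower under the *Pgam* label and the INK4 genes did not pass the test. *Cdkn1b*, which encodes p27Kip1, lies on chromosome 6 from 134920401 to 134925513, plus strand (ENSMUSG00000003031). It stood at 156, 230 and 155 CPM in scrambled replicates 1, 2 and 3. In replicates 1, 2 and 3 labelled *Pgam* ASO it stood at 59.1, 84.9 and 117 CPM. Every library labelled *Pgam* ASO was lower than every scrambled one, but spread within labels was wide, and replicate 3 came nearest to the scrambled level. *Cdkn1b* fell by 1.05 on the log2 scale (SE 0.27, 95% interval -1.70 to -0.40, edgeR adjusted p = 0.0429), which placed it at percentile 4.93 of all tested genes by fold change. Without scrambled replicate 2, the highest, the log2 fold change was -0.83 (edgeR adjusted p = 0.164). Of the 6 libraries left out in turn, the call was kept without replicate 3 labelled *Pgam* ASO (edgeR adjusted p = 0.00859), and the other 5 gave 0.053 to 0.164. With library size alone the adjusted p was 0.0527 and with no filter on low counts it was 0.172. Other genes share 0.09% of its 31-base stretches.

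Neither INK4 gene passed the test. *Cdkn2c*, on chromosome 4 from 109660876 to 109667189, minus strand (ENSMUSG00000028551), encodes p18INK4c. It ranged from 41.5 to 50.7 CPM with the scrambled label and from 49.6 to 55.6 CPM with the *Pgam* label (log2 fold change 0.17, SE 0.10, edgeR adjusted p = 0.288). *Cdkn2d*, on chromosome 9 from 21288410 to 21291407, minus strand (ENSMUSG00000096472), encodes p19INK4d. Its range was 58.8 to 72.7 CPM and 70.2 to 82.3 CPM (log2 fold change 0.17, SE 0.10, edgeR adjusted p = 0.266). Their 95% intervals, -0.07 to 0.40 and -0.06 to 0.41, lay above the whole interval of *Cdkn1b*, and the difference between genes was not tested.

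Beyond these 10, 68 genes of the pathway were listed, of which 64 were tested. Higher levels under the *Pgam* label were called for 17 of 64, against 8.03% of all tested genes, and lower levels for 5 of 64, no larger a share than the 9.15% of all tested genes. The median log2 fold change was 0.14, and DESeq2 called 22 higher and 7 lower, against 10.4% and 11.1% of all tested genes. Without scrambled replicate 2, 5 were higher and 3 lower. Without scrambled replicate 1 or *Pgam* ASO replicates 1 or 2 the totals were 6, 7 and 2, and without scrambled replicate 3 or *Pgam* ASO replicate 3 they were 31 and 25. Over all tested genes the calls in these fits ran from 391 to 3484. In 67 of 132 fits 1 of the 22 genes was no longer called, and its log2 fold change was then 70.2% to 115% of that with all 6 libraries (median 96.2%).

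RB, its relatives and the E2F factors act next after the D-type kinases. Of 13 tested, 4 were higher, against 8.03% of all tested genes, and 9 were not called, with a median log2 fold change of 0.23. *Tfdp1*, the partner with which E2Fs bind DNA, had means of 281 ± 23 and 397 ± 33.2 CPM (SD, n = 3), a rise of 0.50 on the log2 scale (edgeR adjusted p = 0.0109, and 0.073 without *Pgam* ASO replicate 2). *E2f3*, an activating E2F, *E2f4*, a repressive one, and *E2f7*, an atypical repressor, rose by 0.38, 0.36 and 0.34 on the log2 scale (edgeR adjusted p = 0.0484, 0.0399 and 0.0403). With library size alone 2 of the 13 passed. In edgeR 1 was higher without replicate 1 or 2 of the scrambled label or *Pgam* ASO replicate 1. Without *Pgam* ASO replicate 2 it was 0, and 4 had an unadjusted p under 0.05. With all 6 libraries 5214 of 14936 tested genes had such a p, and the number in that fit is not given here. Without scrambled replicate 3 there were 5 higher and 1 lower, and without *Pgam* ASO replicate 3 there were 4 higher and 1 lower. The adjusted p of *E2f3*, *E2f4* and *E2f7* reached 0.16, 0.138 and 0.12 in edgeR with a library left out. Genes of S phase entry that E2F controls all leaned one way, with a log2 fold change above 0 for 14 of 14 under each scaling, against 49.4% of all tested genes. Their median was 0.39, and 8 of 14 were called higher, against 8.03% of all tested genes, or 12 of 14 in DESeq2, against 10.4%. With each library left out 14 of 14 were again above 0, but the number that passed in edgeR was 1 and 3 without scrambled replicates 1 and 2, 2 without *Pgam* ASO replicate 1, 0 without *Pgam* ASO replicate 2 (11 at an unadjusted p under 0.05), 9 without *Pgam* ASO replicate 3 and 12 without scrambled replicate 3. Over all tested genes the higher calls were 1199 with all 6 libraries, 160 without *Pgam* ASO replicate 2 and 1711 without scrambled replicate 3. *Rrm2* and *Tk1*, which supply deoxynucleotides, rose by 0.53 and 0.46 (edgeR adjusted p = 0.0103 and 0.0111). *Mcm3*, a subunit of the replicative helicase, and *Cdt1*, which loads it, rose by 0.41 and 0.39 on the same scale (edgeR adjusted p = 0.0284 and 0.0306). With a library left out, the adjusted p of these 4 genes in edgeR reached 0.0704, 0.0636, 0.116 and 0.114.

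CDK2 and its activators included 2 higher genes of 6, against 8.03% of all tested genes. *Cdc25a*, the phosphatase that removes inhibitory phosphates from CDK2, stood at 84.3, 64.5 and 87.3 CPM with the scrambled label and at 132, 121 and 107 CPM with the *Pgam* label. This is a rise of 0.61 on the log2 scale (SE 0.12, edgeR adjusted p = 0.0138, and 0.0754 without *Pgam* ASO replicate 2). *Ccna2*, cyclin A2, rose by 0.34 (edgeR adjusted p = 0.0245), whereas *Cdk2* and *Mnat1* had log2 fold changes of 0.14 and -0.23 (edgeR adjusted p = 0.239 and 0.182). Of 9 parts of the ubiquitin ligases that degrade p27Kip1 and the G1 cyclins, 2 were higher, against the same 8.03%. These were *Rbx1* and *Cks1b*, the cofactor through which SKP2 recognises p27Kip1, with log2 fold changes of 0.37 and 0.32 (edgeR adjusted p = 0.0326 and 0.0465). *Skp2* itself had one of 0.30 (edgeR adjusted p = 0.143), and *Rnf123* had one of -0.20 (edgeR adjusted p = 0.203), which became 0.17 and -0.10 without scrambled replicate 2. Of 5 tested genes of the MuvB complex and its partners 1 was higher, against 8.03% of all tested genes. Their median log2 fold change was -0.04. The gene called was *Mybl2*, higher by 0.51 (edgeR adjusted p = 0.0447), and the other 4 were not called. MuvB is the core of DREAM, which represses cell cycle genes at rest, and *Mybl2* encodes B-MYB, which joins MuvB after DREAM has come apart and activates genes of the later cell cycle. *Rbbp4*, *Lin37* and *Lin52* had log2 fold changes of 0.19, -0.18 and -0.15 (edgeR adjusted p = 0.115, 0.251 and 0.593), and *Lin54* was not analysed here. Without scrambled replicate 2 neither *Ccna2* (edgeR adjusted p = 0.0514) nor *Rbx1* (0.0803), *Cks1b* (0.114) or *Mybl2* (0.0799) passed. Nor did these 4 pass in edgeR without scrambled replicate 1 or *Pgam* ASO replicates 1 or 2, where their adjusted p reached 0.123, 0.121, 0.164 and 0.142. *Cks1b* was also lost without *Pgam* ASO replicate 3.

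Of the other CDK inhibitors, *Cdkn1a*, which encodes p21Cip1, was the one at a sizeable level, with 182, 126 and 221 CPM against 265, 239 and 223 CPM. Its libraries did not overlap between labels, as in 39.5% of all tested genes. The log2 fold change of 0.46 did not pass (SE 0.18, edgeR adjusted p = 0.105), though it did without scrambled replicate 3 (0.0181) and with no filter on low counts (0.000162). Without scrambled replicate 2 it was 0.26 (edgeR adjusted p = 0.146). Of the 2 tested genes of this list edgeR called 0, and DESeq2 called 1 higher, against 10.4% of all tested genes. In edgeR 1 of the 2 had an unadjusted p under 0.05, against 5214 of 14936 tested genes. *Cdkn1c* lay between 1.13 and 1.8 CPM (edgeR adjusted p = 0.626). *Cdkn2a* had 2, 0 and 1 counts with the scrambled label and 7, 12 and 4 with the *Pgam* label, and *Cdkn2b* had at most 3 counts in a library, so neither was tested. A floor of 3 counts corresponds to 0.166 to 0.189 CPM by library totals alone, without TMM scaling, and covers counting error only.

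Among quiescence regulators of T cells the calls were in the direction of *Cdkn1b*, with 5 of 9 lower in edgeR, against 9.15% of all tested genes, and 7 of 9 in DESeq2, against 11.1%. The median log2 fold change was -0.84. *Foxp1*, which keeps naïve T cells at rest, was at 202, 247 and 170 CPM in scrambled replicates 1, 2 and 3, and at 73, 90 and 101 CPM in replicates labelled *Pgam* ASO. It fell by 1.23 on the log2 scale (SE 0.15, edgeR adjusted p = 0.00186). *Btg1*, an antiproliferative gene, fell by 1.14 (SE 0.12, edgeR adjusted p = 0.000884). Both calls were kept with each of the 6 libraries left out, with adjusted p up to 0.0193 and 0.0156 in edgeR. *Foxo1* and *Foxo3*, transcription factors known to activate *Cdkn1b*, fell by 0.84 and 0.44 (edgeR adjusted p = 0.0114 and 0.0251). Without *Pgam* ASO replicate 2 neither passed (edgeR adjusted p = 0.0681 and 0.123), and *Foxo3* did not pass without scrambled replicates 1 or 2 or *Pgam* ASO replicate 1 either (0.092, 0.0535 and 0.0896). *Btg2*, named after its values were seen because it completes the 5, fell by 1.57 (edgeR adjusted p = 0.0349, and 0.0755 without scrambled replicate 2). It did not pass without replicate 1 or 2 of either label, where the adjusted p in edgeR reached 0.12. The count of 5 was 3 without scrambled replicate 1 or 2 or *Pgam* ASO replicate 1, 2 without *Pgam* ASO replicate 2, and 6 without replicate 3 of either label. Over all tested genes the lower calls were 1366 with all 6 libraries, 231 without *Pgam* ASO replicate 2 and 1773 without scrambled replicate 3. *Klf2*, also named after its values were seen, had the lowest log2 fold change of the list, -2.17, but its *Pgam* ASO values of 6.02, 14.8 and 42.9 CPM spread widely and it did not pass in edgeR (adjusted p = 0.0888). DESeq2 and limma-voom called *Klf2* lower (adjusted p = 0.041 and 0.0174), as did edgeR without *Pgam* ASO replicate 3 (adjusted p = 0.0148), and over its 14 alternatives the adjusted p ran up to 0.326. Among the other cyclins and CDKs listed, 0 of 6 passed in edgeR and 0 in DESeq2. In edgeR 3 of the 6 had an unadjusted p under 0.05, against 5214 of 14936 tested genes. The nearest were *Ccnf*, *Ccnl1* and *Ccng2*, with log2 fold changes of 0.23, -0.27 and -0.70 (edgeR adjusted p = 0.0614, 0.0663 and 0.138), while *Ccnc* had one of 0.15 (edgeR adjusted p = 0.405), and *Cdk3* was not analysed here. *Ccnl1* passed without scrambled replicate 3 (-0.32, edgeR adjusted p = 0.0411). *Ccng2* passed without *Pgam* ASO replicate 3 (-1.05, edgeR adjusted p = 0.00733), and without *Pgam* ASO replicate 1 it was -0.45 (0.15).

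**Figure D4:**
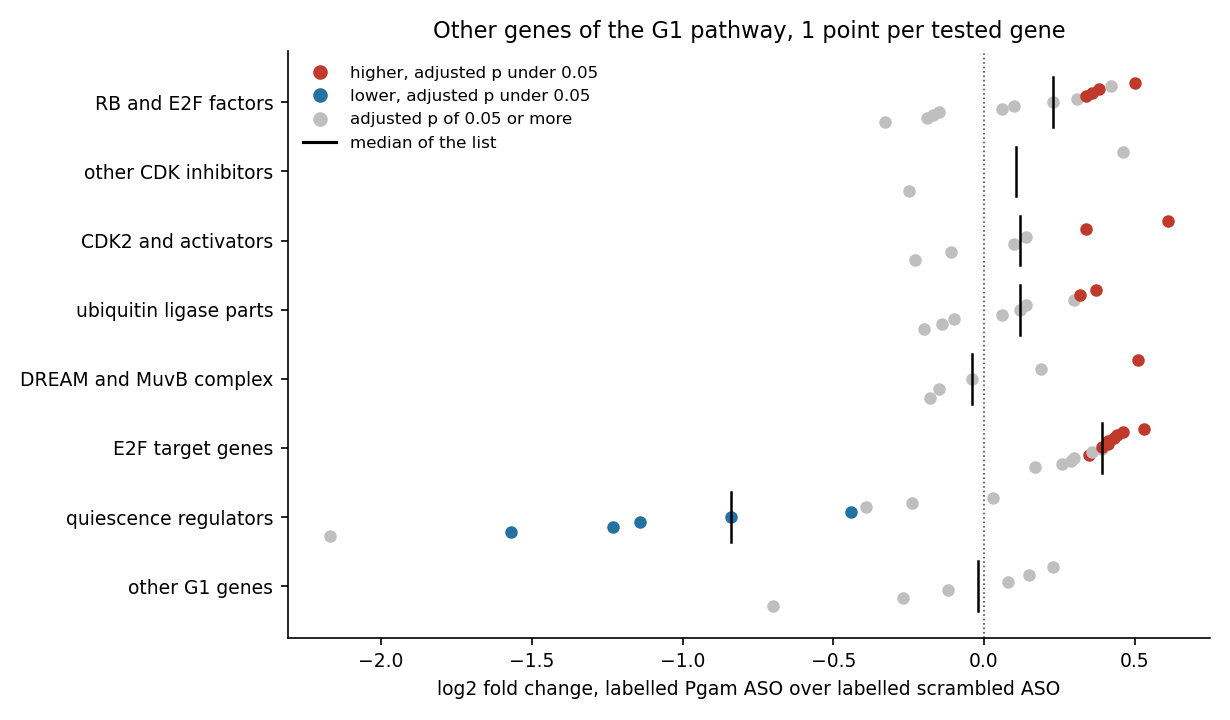
Log2 fold change of the 64 other tested genes of the pathway, libraries labelled *Pgam* ASO over those labelled scrambled ASO, 1 point per gene, red where higher and blue where lower at an adjusted p under 0.05, with a black line at the median of each list. Points are offset vertically for legibility, and the lists of E2F targets (median 0.39) and quiescence regulators (median -0.84) lie farthest from 0. The row marked other G1 genes holds the other cyclins and CDKs listed.

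Patterns over the 6 libraries were compared with those of *Cdk6* and *Cdkn1b*, the genes called higher and lower with the smallest adjusted p. The measure was the root mean square difference of log2 CPM, each gene centred on its mean, over 11920 other genes with a mean log2 CPM of at least 1. The nearest to *Cdk6* were *Isg15*, *Dpy19l1* and *Pole4*, at 0.025, 0.061 and 0.069. For *Cdkn1b* they were *Appl2*, *Wdr45* and *Hbp1*, at 0.072, 0.084 and 0.093. *Isg15* encodes a ubiquitin-like protein induced by interferon, *Pole4* a subunit of DNA polymerase epsilon, and *Hbp1* a transcriptional repressor. The *Cdkn1b* pattern had its peak in scrambled replicate 2, at 0.92 above the mean, and its low in replicate 1 labelled *Pgam* ASO, at -1.04. The *Cdk6* pattern was lowest in scrambled replicate 2, at -0.65, and even across the libraries labelled *Pgam* ASO, from 0.35 to 0.48.

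**Figure D5:**
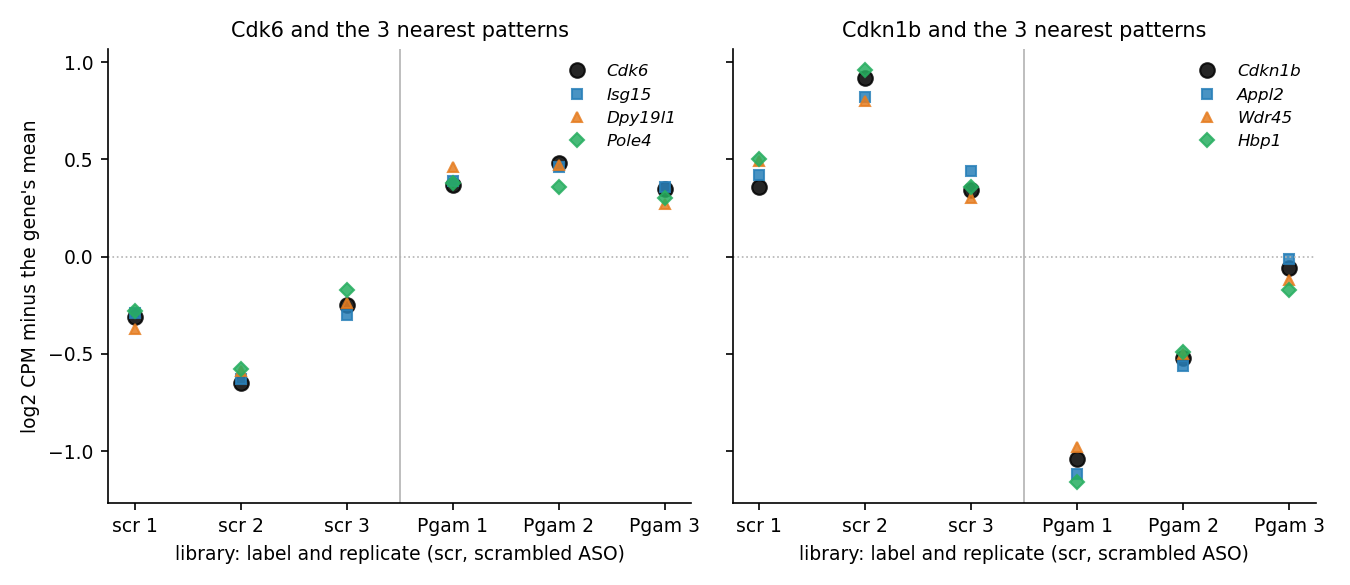
Log2 CPM minus the gene's own mean in each of the 6 libraries, for *Cdk6* with its 3 nearest genes on the left and *Cdkn1b* with its 3 nearest on the right. *Cdk6* is even over the libraries labelled *Pgam* ASO, from 0.35 to 0.48, whereas *Cdkn1b* there runs from -1.04 to -0.06.

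Markers of the cell types in the cultures were read beside the G1 genes. The 8 CD4 T cell markers summed to 3680, 3747 and 3595 CPM in scrambled replicates 1, 2 and 3. In replicates labelled *Pgam* ASO they summed to 3286, 3383 and 3493 CPM, lower in all 3. Of these, *Cd28* and *Trac* were lower (log2 fold changes -0.66 and -0.30, edgeR adjusted p = 0.00183 and 0.0416), and *Lck* was not called (0.07, edgeR adjusted p = 0.564). *Cd3d*, *Cd3e*, *Cd3g* and *Cd4* had log2 fold changes of -0.27, -0.37, -0.34 and -0.21, each without overlap between labels, as in 39.5% of all tested genes. None of them passed (edgeR adjusted p = 0.0792, 0.052, 0.0781 and 0.0869). *Thy1*, the most abundant, went the other way, at 981, 883 and 1058 CPM against 1119, 1142 and 1115 CPM, without overlap. Its log2 fold change of 0.21 did not pass (edgeR adjusted p = 0.112), though it did without scrambled replicate 3 (0.0439). Of 5 Treg markers, *Foxp3* and *Ikzf2* were lower and *Il2ra*, the receptor chain CD25 and the most abundant, was higher (edgeR adjusted p = 0.00567, 0.0484 and 0.0185). The remaining markers, *Ctla4* and *Tnfrsf18*, had log2 fold changes of -0.28 and -0.06 and were not called (edgeR adjusted p = 0.0575 and 0.769). The sum of the 5 was 3029, 2886 and 3331 CPM with the scrambled label and 3722, 3750 and 3378 CPM with the *Pgam* label. Most of that sum was *Il2ra*, with means of 1929 and 2768 CPM, and the log2 fold changes of the others were below 0. Neither *Trac* nor *Ikzf2* passed without replicate 1 or 2 of either label. Their adjusted p in edgeR reached 0.153 and 0.139, and was 0.0898 and 0.124 without scrambled replicate 2. *Cd28* passed with each library left out, whereas the adjusted p of *Il2ra* in edgeR reached 0.0967. Other cell types were near absent by their defining markers. The 5 B cell markers summed to 6.63 to 11.6 CPM over the 6 libraries (most abundant *Cd79a*), and the 4 erythroid markers to 1.3 to 2.76 CPM (*Alas2*). *Cd79a* had a log2 fold change of -1.04, which DESeq2 called and edgeR did not (adjusted p = 0.0383 and 0.0661), and its adjusted p over 14 alternatives ran from 0.0127 to 0.216. The 6 myeloid markers (most abundant *Cd68*) summed to 8.1, 8.8 and 8.18 CPM in scrambled replicates 1, 2 and 3 and to 6.15, 5.77 and 7.51 CPM in replicates labelled *Pgam* ASO, lower in all 3. Its members went both ways, with *Cd68* lower on average (log2 fold change -0.57, edgeR adjusted p = 0.0933) and *Lyz2* at 1.24, 1.35 and 0.867 CPM against 1.37, 1.48 and 1.6 CPM (log2 fold change 0.35, edgeR adjusted p = 0.481). The 4 mast cell and basophil markers (most abundant *Cpa3*) summed to 1.07, 1.89 and 1.36 CPM and to 4.1, 3.98 and 2.96 CPM, higher in all 3. *Cpa3* had a log2 fold change of 1.09, just outside the threshold in edgeR and inside it in DESeq2 (adjusted p = 0.0526 and 0.0458), and over 14 alternatives the adjusted p ran from 0.0399 to 0.157. The 2 CD8 T cell markers summed to 10.8 to 15.7 CPM (*Cd8b1*), and they went opposite ways. *Cd8a* was called higher (log2 fold change 1.12, edgeR adjusted p = 0.0286, and up to 0.1 with a library left out), and *Cd8b1*, at 8.78, 10.4 and 8.61 CPM against 7.58, 7.25 and 9.41 CPM, was not called (log2 fold change -0.20, edgeR adjusted p = 0.454).

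NK cell and stromal lists also separated by label, each mostly through 1 abundant gene. Taken singly, 39.5% of all tested genes separated by label. The 4 NK cell markers summed to 57.9, 42 and 58.2 CPM in scrambled replicates 1, 2 and 3 and to 29.3, 28.4 and 26 CPM in replicates labelled *Pgam* ASO, with *Klrb1c* at 0 counts in every library. Most of this was *Eomes*, which T cells also express, and it was lower together with *Klrd1* (edgeR adjusted p = 0.0214 and 0.0131). *Eomes* did not pass without scrambled replicate 1 or *Pgam* ASO replicates 1 or 2 (edgeR adjusted p = 0.0766, 0.053 and 0.0893), nor *Klrd1* without *Pgam* ASO replicate 2 (0.0765). The 7 stromal and endothelial markers summed to 89.9, 149 and 66.5 CPM and to 29.9, 36.4 and 50.3 CPM, nearly all of it *Pecam1*, which naïve T cells express too (edgeR adjusted p = 0.0412). The other 6 of that list stayed at or below 1.51 CPM. Like *Cdkn1b*, *Pecam1* was highest in scrambled replicate 2 and, among libraries labelled *Pgam* ASO, highest in replicate 3. *Pecam1* did not pass without replicate 1 or 2 of either label (edgeR adjusted p from 0.0566 to 0.132), nor with no filter on low counts (0.154). The part of these markers in the values of the G1 genes was not tested.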

How the data were processed

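The authors deposited estimated counts per Ensembl gene and library, which Kallisto made and which were written as whole numbers without normalization. The submitters' processing notes name kallisto and GRCm38, with no version given. Of the 56748 genes, 52073 had a symbol in the gene name table used here. Libraries were grouped by their labels, 3 per group. Counts were fitted in R 4.3.3 with edgeR 4.0.16 by the robust quasi-likelihood test, two-sided, after filterByExpr with its defaults (a count of at least 10, 14936 genes kept) and TMM scaling (factors 0.9721 to 1.029). P-values were adjusted by Benjamini-Hochberg over all 14936 genes. Library totals were 17588755, 18032805 and 16231127 counts for scrambled ASO and 16589933, 15860476 and 16803881 for *Pgam* ASO. Log2 CPM used a prior count of 2. Lengths and coordinates came from GENCODE M21 (GRCm38), and promoter windows from RefSeq (GRCm38.p6). The count table also holds Ensembl identifiers newer than GENCODE M21, and the annotation release used for counting is not known here. Shared stretches of 31 bases were counted on both strands of GENCODE M21 transcripts. Shares were compared by an exact permutation test. Alternatives were DESeq2 1.42.0, limma-voom (limma 3.58.1), other scalings and filters, the replicate number as a block, leaving out single libraries, and an adjusted p under 0.01. The same alternatives for the other named genes that were tested, and lists with single libraries left out, were added after seeing the data. *Cd3d*, *Cd3e*, *Cd3g*, *Cd4*, *Ctla4* and *Tnfrsf18* were not among the genes given these alternatives. The genes named were the 10 members, *Pgam1*, *Pgam2*, *Foxp3*, *Myc*, up to 4 genes with the smallest adjusted p in each list (all of a list of 4), the 3 nearest patterns to the top higher and lower member, and the most abundant marker of each cell type. Outside this rule, and chosen with their values known, are marker genes that passed the test and genes that share stretches with a member. So are the other CD4 T cell markers *Cd3d*, *Cd3e*, *Cd3g*, *Cd4* and *Lck*, and *Ctla4*, *Tnfrsf18*, *Klrb1c*, *Lyz2*, *Btg2* and *Klf2*. The members and lists were chosen with earlier results of these data known. The procedure was tested on simulated data. Protein sequences were not used here.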

Additional observations from a re-analysis of the deposited data

How the results depend on the processing

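The log2 fold change of each G1 gene kept its direction in 137 of 140 alternative fits. The exceptions were *Ccnd1* without *Pgam* ASO replicate 1 (-0.034) and *Ccnd2* without scrambled replicate 3 (0.035) or *Pgam* ASO replicate 3 (5.2e-05). With each library left out, *Ccnd1* ran from -0.03 to 0.31 and *Ccnd2* from -0.22 to 0.04, and neither was called in any fit. *Cdk6* was called in all 14 of its alternatives, and 20 fits of *Ccnd3*, *Cdk4* and *Cdkn1b* lost the call. The 4 G1 genes called became 2 with library size alone, where the cause was not tested, and 1 at an adjusted p under 0.01, and ran from 1 to 5 with each library left out. The 22 other genes of the pathway called became 2 at an adjusted p under 0.01, and ran from 2 to 31 with each library left out. Of 896 fits of 64 other named genes, 107 lost a call, 21 gained one and 2 turned, *Lin52* without *Pgam* ASO replicate 3 (0.0081) and *Pgam1-ps2* without scrambled replicate 2 (-0.00056). With each library left out *Lin52* ran from -0.29 to 0.01 and *Pgam1-ps2* up to 0.24. The difference in the share of *Ccnd2* ran from -9.95 to -7.13 percentage points with each library left out, that of *Cdk6* from 4.76 to 5.55, and that of *Ccne2* from -1.86 to 0.094, the last without *Pgam* ASO replicate 1. The *Cdk6* difference was 3 points with the longest transcripts and 7.67 with no division by length, since the lengths weight the genes. Over all tested genes 2565 were called, 391 to 3484 with each library left out. Depth limits *Ccnd1* most, with 13 to 20 counts a library.

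With the replicate number as a replicate block, 3 G1 genes were called (*Ccnd3*, *Cdk6* and *Cdkn1b*), *Cdk4* having an edgeR adjusted p of 0.0845, along with 7 other genes of the pathway and 1235 of all tested genes. Equal numbers correlated at 0.0534, -0.034 and -0.237 in their deviations from the group means across genes, and scrambled replicates 2 and 3 correlated best with another number, so equal numbers were not taken as pairs.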
